A study of Mus musculus with 10 samples.

Results

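Epidermal calcium handling and water transport were described through 9 genes, which encode a calcium-sensing receptor (Casr), cation channels of the plasma membrane (Trpv3, Trpv4, Trpv6 and Orai1), the calcium sensor of the endoplasmic reticulum (Stim1), the calcium pumps of intracellular stores (Atp2a2 and Atp2c1) and an aquaporin (Aqp3). They were chosen by name, out of 19938 genes that had a probe set with a single gene symbol, and each of the 9 was represented by 1 probe set. RNA came from the whole epidermis of 3-day-old littermates, separated from the dermis with dispase, and was hybridized to 10 oligonucleotide arrays, 1 per mouse. The 5 ILK-deficient mice were homozygous for a floxed allele of Ilk (K14Cre; Ilk f/f), and the 5 ILK-expressing mice were heterozygous for it (K14Cre; Ilk f/+). Mice of both genotypes carried the KRT14-cre transgene and at least 1 floxed allele, so the ILK-expressing mice were no wild types. The keratin 14 promoter drives Cre in keratinocytes. Whether Ilk stayed intact in the melanocytes, immune cells and other residents of the tissue was not measured. The arrays measured a mixture of all of these cells, in which fewer cells of a type and less RNA per cell cannot be told apart.

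In normal epidermis, extracellular calcium rises from the basal layer to the granular layer, and this gradient directs keratinocytes from growth to differentiation. Keratinocytes sense external calcium through CASR, release calcium from internal stores through inositol trisphosphate, and refill the stores by STIM1, which opens ORAI1 when the reticulum runs empty. Loss of 1 copy of the reticulum pump gene ATP2A2 causes Darier disease in humans, and loss of 1 copy of the Golgi pump gene ATP2C1 causes Hailey-Hailey disease, both disorders in which keratinocytes come apart. AQP3 carries water and glycerol into keratinocytes and is needed for a hydrated and elastic skin.

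None of the 9 genes passed the test between the genotypes. The test was limma's moderated test on log2 values, with Benjamini-Hochberg adjustment over the 32046 probe sets that reached 50 on the linear scale in 5 arrays or more. All 9 members reached it, and their adjusted p values ranged from 0.301 to 0.964. Of all probe sets tested, 3.78% had an adjusted p under 0.05. At an unadjusted p under 0.05, 1 of the 9 members (Atp2a2) differed, where 15.9% of all probe sets did. The log2 differences, ILK-deficient minus ILK-expressing, ran from -0.37 for Trpv6 to 0.32 for Trpv4, with 5 estimates above 0 and 4 below it. Their median was 0.02, and their median size without regard to sign was 0.13, against 0.0031 and 0.0894 over all probe sets tested. The values of the genotypes overlapped for every member, while 6.33% of all probe sets showed no overlap. For 7 of the 9 members, the 95% interval of the difference lay inside a 1.5-fold change in either direction, which was true of 82.6% of all probe sets tested. Only the intervals of Trpv4 and Trpv6 reached beyond it.

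**Figure D1:**
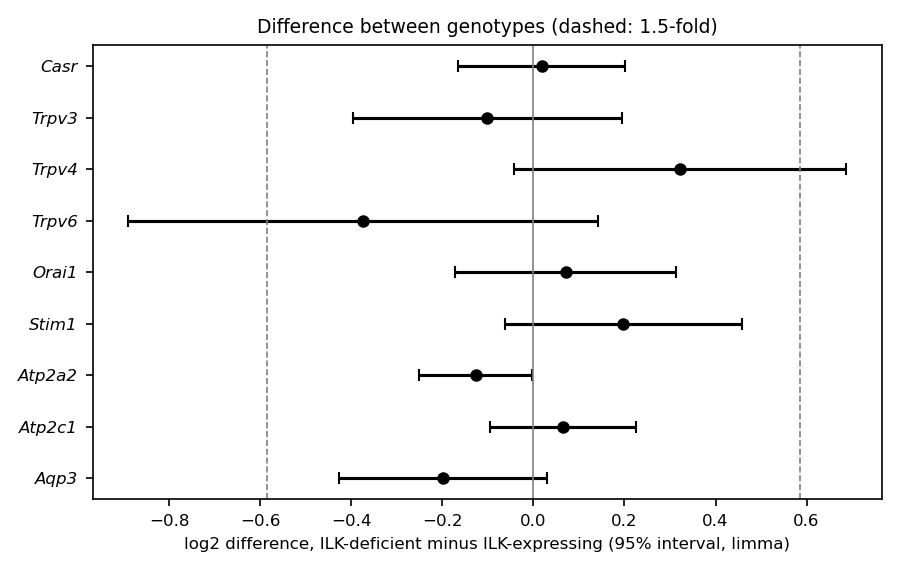
Log2 difference between ILK-deficient and ILK-expressing epidermis for the 9 members, with the 95% interval from limma (5 arrays against 5) and dashed lines at a 1.5-fold change. The intervals of Trpv4 (-0.04 to 0.69) and Trpv6 (-0.89 to 0.14) cross a dashed line, and that of Atp2a2 (-0.25 to -0.0027) lies just below 0.

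The genotype and tissue labels were also set against the arrays. The pooled probe set of Ilk had a mean of 8.94 ± 0.118 on the 5 ILK-deficient arrays and of 9.17 ± 0.181 on the 5 ILK-expressing arrays (SD), a log2 difference of -0.23 (adjusted p = 0.253 from limma), and it also reads exons that the deletion leaves in place, so it checks the labels little. All 8 keratinocyte markers exceeded the limit on low values, with a summed linear level of 85809 to 90683 in ILK-deficient and 88288 to 97719 in ILK-expressing epidermis, and 1 of them passed the test as higher and 1 as lower. All 7 markers of the hair shaft and inner root sheath were lower in ILK-deficient epidermis, with a summed level of 887 to 3284 against 11988 to 54063. Of 7 melanocyte markers, 4 were higher and none was lower, with a summed level of 6152 to 11196 against 1679 to 4269. Of the T cell markers measured, 1 of 4 tested was higher, as were 2 of 6 macrophage markers, and no marker of fibroblasts, Langerhans cells, endothelium or muscle passed the test. Fibroblast markers summed to 3664 to 6696 in ILK-deficient and 1607 to 5570 in ILK-expressing epidermis. ILK-expressing replicate 5 had a median correlation of 0.974 to the other arrays, where 2 arrays of different genotype had a median of 0.979. The part of these differences in the members' values was not tested.

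Casr encodes the G-protein-coupled receptor by which cells read extracellular calcium. Its log2 values were 5.89, 5.76, 5.80, 5.82 and 5.66 in ILK-deficient replicates 1 to 5, and 5.76, 5.94, 5.69, 5.91 and 5.55 in ILK-expressing replicates 1 to 5. These lay close to the limit on low values, which is 5.64 on the log2 scale, and 9 of the 10 arrays reached it. Within that narrow range the ILK-deficient arrays fell between the lowest and the highest ILK-expressing array. The log2 difference was 0.02 (standard error 0.083, adjusted p = 0.964 from limma), with a 95% interval of -0.17 to 0.20. Its sign turned to -0.005 with each array centred on its median and to -0.011 with the 75th percentiles of the arrays set equal, so Casr had no direction in these data.

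The TRPV members are cation channels. TRPV3 is a warmth-sensitive channel of keratinocytes, TRPV4 responds to osmotic and mechanical stimuli, and TRPV6 is a highly calcium-selective channel best known from calcium-absorbing epithelia. Trpv3 was at 9.32, 9.01, 9.10, 8.68 and 9.20 in ILK-deficient replicates 1 to 5, and at 9.12, 8.84, 9.16, 9.31 and 9.40 in ILK-expressing replicates 1 to 5. Only ILK-deficient replicate 4 lay below all ILK-expressing arrays. The Trpv3 difference was -0.10 (standard error 0.133, adjusted p = 0.844 from limma), with an interval of -0.40 to 0.19. It was -0.006 without ILK-deficient replicate 4.

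Trpv4 had the highest estimate among the 9 members. Its log2 values were 7.91, 8.06, 7.68, 7.99 and 8.52 in ILK-deficient replicates 1 to 5, and 7.66, 7.70, 7.86, 7.30 and 8.02 in ILK-expressing replicates 1 to 5. ILK-deficient replicates 2 and 5 lay above every ILK-expressing array, and ILK-expressing replicates 1 and 4 lay below every ILK-deficient array. The means were 8.03 ± 0.308 (SD, n = 5) and 7.71 ± 0.269 (SD, n = 5). Their difference of 0.32 (standard error 0.165, adjusted p = 0.399 from limma; two-sided p from the exact permutation test = 0.111) was not past the test, and its interval of -0.04 to 0.69 allows a rise of up to 1.61-fold. The difference was 0.20 without ILK-deficient replicate 5, and 0.17 among the arrays that share the most common letter prefix of the sample descriptions.

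Trpv6 had the lowest estimate and the widest spread of the 9. It was at 7.63, 7.57, 7.10, 7.65 and 7.81 in ILK-deficient replicates 1 to 5, and at 7.48, 7.28, 8.09, 8.47 and 8.31 in ILK-expressing replicates 1 to 5. ILK-expressing replicates 3, 4 and 5 lay above all ILK-deficient arrays, while ILK-expressing replicates 1 and 2 lay among them. The SD was 0.522 (n = 5) in ILK-expressing and 0.27 (n = 5) in ILK-deficient epidermis. The difference of -0.37 (standard error 0.233, adjusted p = 0.529 from limma; two-sided p from the exact permutation test = 0.19) had an interval of -0.89 to 0.14, which allows a level as low as 0.54 of that in ILK-expressing epidermis. That prefix, of unstated meaning, is shared by 4 ILK-deficient and 3 ILK-expressing arrays, and among them the Trpv6 difference was -0.13. ILK-expressing replicates 4 and 5, at 8.47 and 8.31, are outside that prefix. Omission of single arrays gave -0.54 to -0.24.

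**Figure D2:**
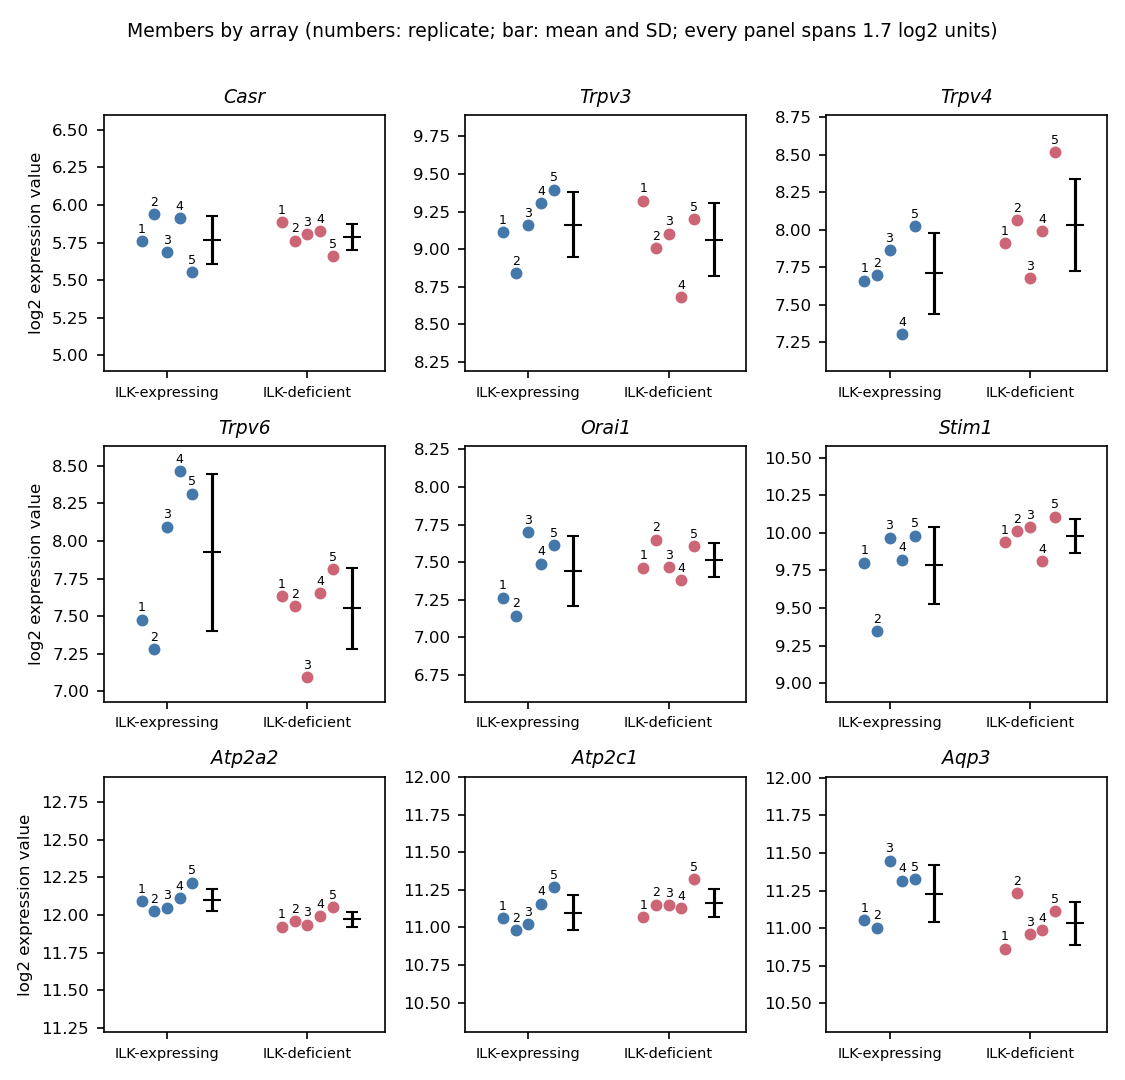
Log2 expression values of the 9 members on 5 ILK-expressing and 5 ILK-deficient arrays, 1 point per array with its replicate number, and the mean with its SD beside each group. All panels span the same width of log2 units, so that the spread of Trpv6 (7.10 to 8.47) can be set against that of Atp2a2 (11.92 to 12.22), and in every panel the genotypes overlap.

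Orai1 and Stim1 form the store-operated calcium entry pathway, ORAI1 as the pore and STIM1 as the sensor that opens it. Orai1 was at 7.46, 7.65, 7.47, 7.38 and 7.61 in ILK-deficient replicates 1 to 5, and at 7.26, 7.15, 7.70, 7.49 and 7.61 in ILK-expressing replicates 1 to 5. The ILK-deficient arrays all fell within the range of the ILK-expressing ones. The Orai1 difference was 0.07 (standard error 0.11, adjusted p = 0.873 from limma), with an interval of -0.17 to 0.31, and it was -0.003 without ILK-expressing replicate 2. Stim1 was at 9.94, 10.01, 10.04, 9.81 and 10.11 in ILK-deficient replicates 1 to 5, and at 9.80, 9.35, 9.97, 9.82 and 9.98 in ILK-expressing replicates 1 to 5. ILK-deficient replicates 2, 3 and 5 exceeded every ILK-expressing array, and ILK-expressing replicate 2 was far below the rest. The Stim1 difference of 0.20 (standard error 0.118, adjusted p = 0.502 from limma; two-sided p from the exact permutation test = 0.127) fell to 0.09 without that array.

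Atp2a2 encodes SERCA2, the pump that fills the endoplasmic reticulum, and was the member with the lowest p value. It was at 11.92, 11.96, 11.94, 11.99 and 12.05 in ILK-deficient replicates 1 to 5, and at 12.09, 12.03, 12.05, 12.11 and 12.22 in ILK-expressing replicates 1 to 5. ILK-deficient replicates 1 to 4 lay below every ILK-expressing array, and replicate 5 exceeded the lowest ILK-expressing arrays by a small margin. The means of 11.97 ± 0.051 (SD, n = 5) and 12.10 ± 0.0739 (SD, n = 5) differed by -0.13, or -8.41% on the linear scale. The exact permutation test gave p = 0.0238 (two-sided; 0.00794 is the smallest p that 5 against 5 arrays can give), and limma p = 0.046, which became 0.301 after adjustment over all probe sets. Its difference was below 0 under all 23 alternative settings, from -0.16 to -0.09, and its adjusted p was under 0.05 under none of them, with 0.166 as the lowest. Atp2c1, which encodes the Golgi pump SPCA1, was at 11.07, 11.15, 11.15, 11.13 and 11.32 in ILK-deficient replicates 1 to 5, and at 11.06, 10.98, 11.02, 11.16 and 11.27 in ILK-expressing replicates 1 to 5. Only ILK-deficient replicate 5 exceeded all ILK-expressing arrays. The Atp2c1 difference was 0.06 (standard error 0.0725, adjusted p = 0.8 from limma), with an interval of -0.10 to 0.23. It ranged from 0.025 without ILK-deficient replicate 5 to 0.107 without ILK-expressing replicate 5, and was 0.115 with the letter prefix as a covariate.

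Aqp3 encodes the aquaglyceroporin of basal keratinocytes. Its log2 values were 10.86, 11.23, 10.96, 10.99 and 11.11 in ILK-deficient replicates 1 to 5, and 11.05, 11.00, 11.45, 11.32 and 11.33 in ILK-expressing replicates 1 to 5. ILK-deficient replicates 1, 3 and 4 lay below all ILK-expressing arrays, and ILK-expressing replicates 3, 4 and 5 above all ILK-deficient ones. The means were 11.03 ± 0.144 (SD, n = 5) and 11.23 ± 0.192 (SD, n = 5). Their difference of -0.20 (standard error 0.103, adjusted p = 0.411 from limma; two-sided p from the exact permutation test = 0.103) had an interval of -0.43 to 0.03, which spans 0.744 to 1.02 of the level in ILK-expressing epidermis. Aqp3 was below 0 under each of the 23 alternative settings, from -0.26 to -0.14, with 0.214 as the lowest adjusted p.

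**Figure D3:**
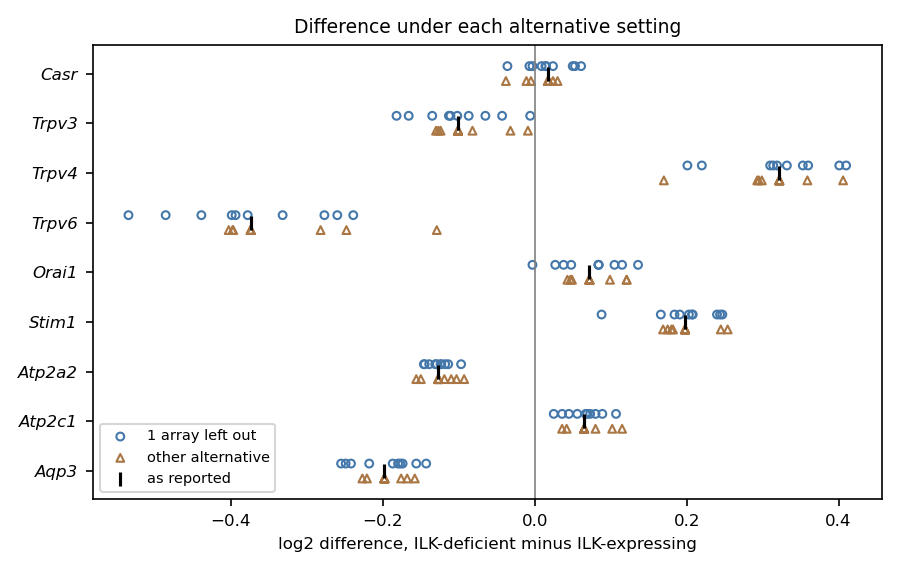
Log2 difference of each member as reported (black bar), with 1 array left out (circles) and under the other alternatives (triangles). Trpv4, Stim1 and Atp2c1 stay above 0 and Trpv3, Trpv6, Atp2a2 and Aqp3 below it, while Casr and Orai1 have points on both sides.

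The members also varied from array to array within a genotype, and several of them did so together. After subtraction of each genotype's mean, Atp2a2 and Atp2c1 had a Pearson's r of 0.94 (Spearman's rho 0.85) and Orai1 and Aqp3 an r of 0.92 (rho 0.94), each over 10 arrays. Of all genes tested, 0.0166% were as close to Atp2a2 as Atp2c1 was, and 0.337% were as close to Orai1 as Aqp3 was. Orai1 and Stim1 had an r of 0.85, and 2.00% of all genes tested were as close to Orai1. These were the highest of the 36 pairs of members, which had a median of 0.47, with 16 over 0.5. Such values were common among all genes: 15.2% of them had an r over 0.5 with Trpv3, the lowest share of any member, and 27.9% with Orai1, the highest. Casr was opposite to the other 8 members, with r from -0.75 (Stim1) to -0.37 (Trpv6). As given above, its values lay close to the limit on low values. Its median r with all genes was also below 0, at -0.19. Of all genes, 92.6% had an r with Casr at least as high as that of Stim1, and 60.8% at least as high as that of Trpv6. All points of a pair share the same arrays, and most members also moved with the overall scale of those arrays. The deviations of Casr had an r of -0.79 with the 75th percentile of the array, those of Orai1 and Aqp3 0.70 each, of Stim1 0.64, of Trpv4 0.63, of Atp2a2 0.50, of Trpv6 0.49, of Atp2c1 0.38 and of Trpv3 0.18. With the 75th percentiles set equal, a setting chosen after these values had been seen, the r of Atp2a2 and Atp2c1 was 0.91, that of Orai1 and Aqp3 0.88 and that of Casr and Stim1 -0.57. In 7 of the 9 members the SD was larger among the ILK-expressing arrays, which was the case for 62.5% of all probe sets tested.

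**Figure D4:**
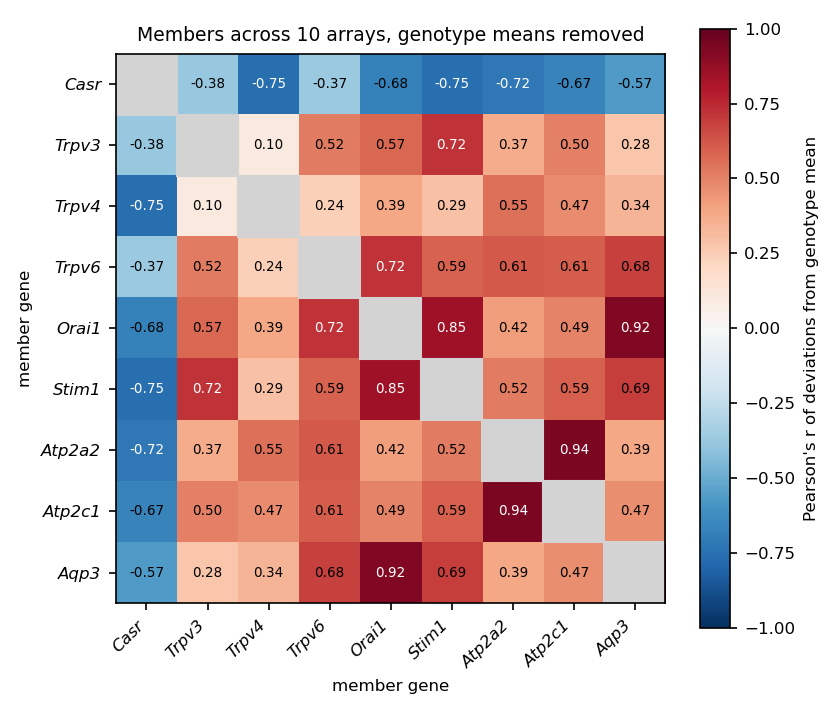
Pearson's r between members across the 10 arrays after each genotype's mean was subtracted, with red for pairs that rose and fell together and blue for opposite pairs. The darkest red cells are those of Atp2a2 with Atp2c1 (0.94) and Orai1 with Aqp3 (0.92). The row of Casr, a gene close to the limit on low values, is blue throughout.

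The 250 bases ahead of the start sites of Orai1 and Aqp3 are printed beside those of Trpv6, the member with the widest spread. Atp2a2, of the pair with the highest r, had no promoter sequence to print. Any part of these sequences in the shared variation was not tested. The sequences are those of RefSeq for GRCm38.p6, which held 8 of the 9 members. They are written 5′ to 3′ on the strand of the gene, at chr5:123014824-123015073 (plus strand), chr4:41098184-41098433 (minus strand) and chr6:41636406-41636655 (minus strand). Capitals mark each CG and each TATAAA.
Orai1: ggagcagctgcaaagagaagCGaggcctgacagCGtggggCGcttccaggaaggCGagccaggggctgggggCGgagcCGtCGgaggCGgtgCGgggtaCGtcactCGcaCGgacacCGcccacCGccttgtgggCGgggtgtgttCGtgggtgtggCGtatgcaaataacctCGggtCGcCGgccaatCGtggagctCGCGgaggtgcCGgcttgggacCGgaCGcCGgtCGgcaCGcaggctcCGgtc
Aqp3: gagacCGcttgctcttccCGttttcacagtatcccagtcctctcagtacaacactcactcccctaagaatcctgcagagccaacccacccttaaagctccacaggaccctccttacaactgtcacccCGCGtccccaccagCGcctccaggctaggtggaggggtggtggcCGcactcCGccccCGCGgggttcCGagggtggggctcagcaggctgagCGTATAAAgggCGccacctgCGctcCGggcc
Trpv6: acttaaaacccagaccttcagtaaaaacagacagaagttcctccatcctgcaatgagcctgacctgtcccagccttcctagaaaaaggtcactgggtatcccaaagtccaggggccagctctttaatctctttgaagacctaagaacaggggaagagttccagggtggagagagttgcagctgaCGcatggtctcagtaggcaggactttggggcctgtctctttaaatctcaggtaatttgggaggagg
The Orai1 promoter holds 30 CG dinucleotides, more than 94.1% of the 32841 promoters compared do, and has a G and C content of 70.8%. Stim1, with 31, and Trpv4, with 22, are similarly rich. Aqp3 is intermediate with 14, and its TATAAA begins 29 bases before the start site. Trpv6 and Casr hold 1 CG each, and Trpv3 holds 3, while Atp2c1 has 2 start sites in the table, with 7 and 28. Of all promoters, 12.4% hold TATAAA on either strand, and Aqp3 was the only one of the 8 members that does. These are counts of letters in this window, and no binding was measured.

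Around the 9 members, 145 other genes of calcium and water transport were measured, and 138 of them exceeded the limit on low values. Of these 138, 8 passed the test as higher in ILK-deficient epidermis and none as lower, where 2.81% of all probe sets passed as higher and 0.970% as lower. Without adjustment, at an unadjusted p under 0.05, 24 were above 0 and 7 below it, against 15.9% of all probe sets in either direction. The 8 were a mucolipin, a voltage-gated channel, a TRPC channel, 2 phospholipases C, a calpain and 2 factors of the NFAT family, and none was a calcium pump or an aquaporin. Their median difference over all 145 genes was 0.02. Without ILK-deficient replicate 3 the number of higher genes was also 8, but with Orai2 called and Nfatc4 not. It was between 3 and 5 when any of the other 9 arrays was left out.

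Mcoln3, an endolysosomal cation channel that is also known from melanocytes, rose most. It was at 10.14, 10.70, 10.26, 10.69 and 10.62 in ILK-deficient replicates 1 to 5, and at 9.15, 9.36, 9.44, 8.78 and 9.57 in ILK-expressing replicates 1 to 5. Each ILK-deficient array exceeded all ILK-expressing ones, and the difference was 1.22 (standard error 0.163, adjusted p = 0.00444 from limma). Melanocyte markers rose on the same arrays, as given above, and their part in this difference was not tested. Cacna1g, a T-type voltage-gated calcium channel, had a difference of 0.73 (standard error 0.156, adjusted p = 0.0304 from limma), a call that was lost under 11 of 23 alternatives. Its ILK-deficient values of 8.23, 8.28, 7.64, 8.13 and 8.70 spread with an SD of 0.378, against 0.0716 among the ILK-expressing arrays. Of the 22 channels of their list tested, 20 did not pass. The mechanosensitive Piezo1 was at 0.0017 (adjusted p = 0.998) and Tmem63b, of a family of osmosensitive channels, at 0.16 (adjusted p = 0.325). Tpcn1, a lysosomal 2-pore channel named after its values were seen, was at -0.45 (adjusted p = 0.0501) with no overlap of the genotypes.

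Capn2, a calcium-activated protease that cleaves adhesion and cytoskeletal proteins, rose by 0.68 on the log2 scale (standard error 0.0955, adjusted p = 0.00537 from limma). It was at 10.02, 10.06, 9.87, 9.63 and 9.75 in ILK-deficient replicates 1 to 5, and at 9.27, 9.02, 9.17, 9.11 and 9.32 in ILK-expressing replicates 1 to 5. Capn1, the calpain that needs less calcium, was at -0.11 (adjusted p = 0.482). Nfatc1, a calcineurin-dependent factor of the hair follicle bulge, rose by 0.75 (adjusted p = 0.0235) and Nfatc4 by 0.32 (adjusted p = 0.0483), while Nfatc3 was at 0.09 (adjusted p = 0.766). The calls of Capn2 and Mcoln3 held under all 23 alternatives, that of Nfatc1 was lost under 6 and that of Nfatc4 under 17. Of 20 calcium effectors tested, 3 were higher and 17 did not pass, with a median of 0.14 over the list.

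Phospholipase C makes the inositol trisphosphate that releases stored calcium. Plcb4 rose by 0.50 (adjusted p = 0.0324 from limma) and Plcb1 by 0.36 (adjusted p = 0.0295), and these calls were lost under 11 of 23 and 12 of 22 alternatives. Plcb3, of the same family, was at 0.25 (adjusted p = 0.126), and the nucleotide receptor gene P2ry4 at -0.50 (adjusted p = 0.191). Of 21 genes of this list tested, 2 were higher and 19 did not pass. In the list of store-operated entry, Trpc4, a receptor-operated cation channel, rose by 0.46 (standard error 0.0865, adjusted p = 0.0189), and 21 of 22 alternatives kept the call. Its ILK-deficient values were 6.66, 6.75, 6.63, 6.88 and 6.98, all above the ILK-expressing values of 6.23, 6.38, 6.18, 6.49 and 6.34. The largest difference of this list was that of Orai2, named after its values were seen, at 0.63 (adjusted p = 0.0815 from limma), which did not pass. Of the 10 genes of the list, 3 had an unadjusted p under 0.05 as higher and 0 as lower, where 15.9% of all probe sets did in either direction. Stim2, the second reticulum sensor, was at -0.12 (adjusted p = 0.423), and Saraf, which slows store-operated entry, at 0.19 (adjusted p = 0.693).

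No gene passed limma's test in the other lists, and their counts at an unadjusted p under 0.05 stand against the 15.9% of all probe sets. Among 10 further calcium pumps and exchangers, the plasma membrane pump gene Atp2b1 was at -0.04 (adjusted p = 0.892) and the Golgi transporter gene Tmem165 at 0.02 (adjusted p = 0.957). Of these 10, none had an unadjusted p under 0.05 from limma. None was called by the analysis of variance named in the methods, whose calls also need a change of 1.5-fold or more. Among 10 further aquaporins tested, Aqp9, a glycerol-permeable channel, was at 0.34 (adjusted p = 0.296), the sole aquaporin with an unadjusted p under 0.05, and Aqp5, a water channel of glands, was at -0.08 (adjusted p = 0.74). The other TRPV genes tested, Trpv2 at 0.06 (adjusted p = 0.905) and Trpv5 at -0.06 (adjusted p = 0.797), did not pass, and Trpv1 did not reach the limit on low values. Of 22 calcium-binding proteins of the stores and the cytosol, the lectin chaperone gene Canx was at -0.03 (adjusted p = 0.883) and the calmodulin-like skin gene Calm4 at -0.16 (adjusted p = 0.301), and 2 genes had an unadjusted p under 0.05. In the list of mitochondrial uptake, with 9 genes tested, the outer membrane channel gene Vdac1 was at -0.08 (adjusted p = 0.626) and the uptake regulator gene Micu2 at 0.08 (adjusted p = 0.733), and 1 gene had an unadjusted p under 0.05. In glycerol and osmolyte handling, with 12 genes tested, the kinase gene Wnk1 was at -0.05 (adjusted p = 0.902) and Nfat5, a factor of the response to hypertonicity, at 0.33 (adjusted p = 0.217), and 1 gene had an unadjusted p under 0.05.

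**Figure D5:**
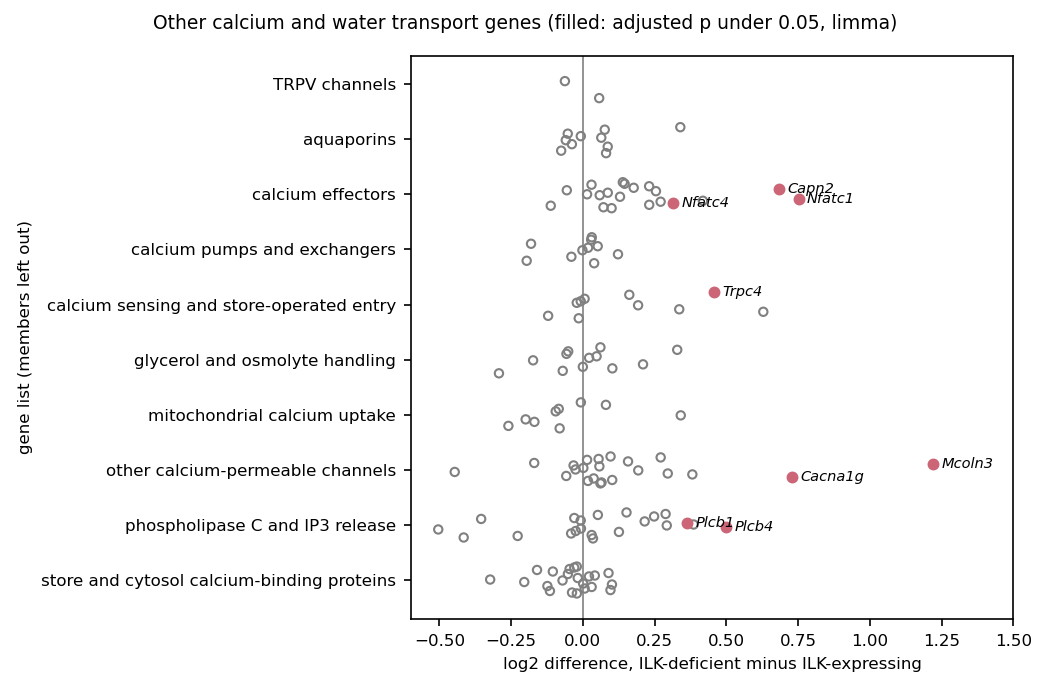
Log2 difference of each tested gene in 10 lists of calcium and water transport genes, with the 9 members left out and 1 point per gene. The 8 filled points had an adjusted p under 0.05 and all lie to the right of 0, with Mcoln3 at 1.22 the furthest, and no filled point lies in the rows of pumps, aquaporins or TRPV channels.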

How the data were processed

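The deposited values are on the log2 scale. To make them the authors corrected the scans for background, normalized the arrays by quantiles and combined the probes of a set. Both RMA and GC-RMA appear in the methods, and which of them gave these values is not stated. Genotypes are those of the sample labels. Genes were named with the annotation of the platform, in which 21789 of 35556 probe sets carry 1 symbol, 1621 several and 12146 none. List symbols were also matched to current names through Entrez identifiers in RefSeq (GRCm38.p6), and 154 of 178 list symbols, older synonyms included, were found. A gene with several probe sets was represented by that with the highest mean.

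The filter left out 3510 probe sets and kept 32046. On an array, 87.4% to 91.2% of the probe sets were at 50 or more, and array medians were 7.07 to 7.17. The small number of arrays, 5 per genotype, limits the precision. Genotypes were compared in R 4.3.3 by limma 3.58.1 through lmFit and eBayes, without block or covariate. In all probe sets, 900 were higher and 311 lower at an adjusted p under 0.05, and 807 and 506 with the 75th percentiles of the arrays set equal. Intervals are those of the moderated test at 95%. Exact permutation tests ran over all 126 distinct splits into 5 and 5. Replicates were separate mice, so p values measure the spread between mice. The procedure was tested on simulated arrays.

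The 9 members, the lists and the tests were chosen with earlier results of these data known. The genes named are the members, Ilk, and of each list up to 4 genes past the test and the 2 with the highest mean that were not, and the 3 genes most like each of Atp2a2 and Trpv4. Tpcn1, Rcn1, Plcd1, Plcg1, Rcan1, Orai2, Trpm7 and Trpv1 were named after their values were seen. Of 23 alternatives, 10 left out 1 array each, and the others took another limit on low values, scaling, test, block, covariate, choice among a gene's probe sets or subset of arrays. Atp2a2 had no promoter sequence in the table used. Single exons were not analysed here.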

Additional observations from a re-analysis of the deposited data

Results flagged for a closer look

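Stim1 in ILK-expressing replicate 2, at 9.35, lay far below the other 4 ILK-expressing arrays, the nearest of which was at 9.80. The gap was a share of 0.718 of the whole range of that group. Of 34 groups of 5 arrays examined this way, over the 9 members and the 8 other genes called, this was the only one to exceed Dixon's 95% critical value, which chance exceeds in about 1 group of 20. The same array was also the lowest of its genotype for Orai1 (7.15), Trpv3 (8.84), Trpv6 (7.28), Atp2a2, Atp2c1 and Aqp3, the highest for Casr (5.94), and neither for Trpv4. Without it the Stim1 difference was 0.09 in place of 0.20.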

How the results depend on the processing

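No member passed the test under any of the 23 alternatives. Of 205 member values, 7 changed sign and none reached an adjusted p under 0.05. Casr, which 2 stricter filters left out, was at -0.005 with arrays centred on their medians, -0.011 with equal 75th percentiles and -0.038 with the letter prefix as a covariate, and at -0.036 to 0.061 with single arrays left out. Orai1 ranged from -0.003 to 0.136 with single arrays left out. The number of other calcium and water transport genes called higher was 8. It was 3 by the methods' analysis of variance with its p values adjusted as for limma, 4 with the replicate block and 2 on the arrays of prefix D alone. It was 3 to 8 with single arrays left out (Orai2 added and Nfatc4 lost without ILK-deficient replicate 3). The number was 9 with a value of 50 or more on all arrays (Plcg1 added) and 10 with quantile normalization (Plcg1 and Rcan1 added). It was 11 with all probe sets of a gene averaged (Orai2, Trpm7 and Plcg1 added), and 6 to 8 under the rest. The methods' own rule was an unadjusted p under 0.05 from the analysis of variance with a change of 1.5-fold or more. In either direction, 5 of these genes and 0 members met it. The share of all probe sets that met this rule was not computed, so these counts have no background beside them. Of the genes called by limma, Plcb4 (1.41-fold), Trpc4 (1.37-fold), Plcb1 (1.29-fold) and Nfatc4 (1.24-fold) fell short of its 1.5-fold part. The number called lower, 0, was 1 (Tpcn1) with a value of 50 or more on all 10 arrays or 100 or more on at least 5, and 2 with quantile normalization, with equal 75th percentiles (each time Tpcn1 and Rcn1, a reticulum calcium-binding protein) and with all probe sets of a gene averaged (Tpcn1 and Plcd1, a phospholipase C), and it was 0 to 1 with single arrays left out. The causes were not tested. Over all probe sets, 1211 calls became 686 by the analysis of variance with adjusted p values, 608 with the replicate block, 294 on prefix D and 597 to 1010 with single arrays left out. They became 1493 with quantile normalization, 1313 with equal 75th percentiles and 1305 with array weights. The average over a gene's probe sets gave 1693 calls among 18121 genes. Same-numbered arrays of the genotypes did not deviate together (r from -0.30 to 0.11, over 0.1 in 1 of 5 pairs, best match in 0 of 5). Such correlations cannot show whether the numbers pair mice, which the labels do not say. The replicate block changed no member's call. The signal of Casr was close to the limit on low values, and the intervals of Trpv4 and Trpv6 do not exclude a 1.5-fold change.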

Other observations

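The genes most like Atp2a2 and Trpv4, the 2 members with the lowest p values, were looked up among 18120 genes with a tested probe set by Pearson's r over the 10 arrays. Each is the highest of many, so no p is given, and all points share the same arrays. For Atp2a2 they were Sqle, which encodes squalene epoxidase (r = 0.96, Spearman's rho 0.94), Ndufa1, a subunit of respiratory complex I (r = 0.95, rho 0.90), and Scd1, a fatty acid desaturase (r = 0.95, rho 0.96). Without the 2 arrays farthest from the median of Atp2a2, r was 0.88, 0.87 and 0.91, and with the genotype means removed it was 0.93, 0.92 and 0.91. None of the 3 passed the test between genotypes, with differences of -0.36, -0.39 and -0.80 (adjusted p = 0.196, 0.21 and 0.16 from limma). For Trpv4 they were Dcaf1, a ubiquitin ligase adaptor (r = 0.95), Tgfb1, which encodes TGF-beta 1 (r = 0.95), and Adamts17, a secreted metalloprotease (r = 0.94), each with a rho of 0.89. Without the 2 arrays farthest from the median of Trpv4, r was 0.89, 0.87 and 0.80, and with the genotype means removed 0.95, 0.94 and 0.93. Their differences were 0.09, 0.32 and 0.93 (adjusted p = 0.682, 0.183 and 0.151 from limma).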
